A study of Danio rerio with 6 samples.

Results

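The ZP3-type egg coat genes of zebrafish were examined in foxl2l-/- and foxl2l+/+ germ cells, using 10 listed genes out of 31743 in the deposited gene table. The names of 6 rows equal a listed symbol, namely zp3a.1, zp3a.2, zp3b, zp3c, zp3d.1 and zp3d.2. The other 4 were matched by Ensembl identifier through the reference name table: zp3 (listed as zp3.2_1), zp3.2 (listed as zp3.2_2), zp3e (listed as zgc:171779) and zp3f.1 (listed as si:ch211-14a17.7). The cells came from TL-strain juveniles at 21 days post fertilization, and every animal carried a foxl2l:egfp reporter, which makes green fluorescent protein where the foxl2l promoter is active. EGFP-positive cells were sorted from dissociated trunks, about 300 per genotype, and their cDNA was amplified by SMART-Seq HT. Foxl2l encodes a forkhead transcription factor of germ cells, and the series asks what it does when juvenile germ cells enter meiosis on the female path. The 3 foxl2l-/- libraries (foxl2l:egfp;foxl2l-/-) were compared with the 3 foxl2l+/+ libraries (foxl2l:egfp;foxl2l+/+). The sort was on reporter activity, so each library holds the reporter-positive cells of its genotype and not all its germ cells. Whether libraries of 1 genotype stem from separate animals is not stated in the labels, and p-values here rest on the variation among the libraries alone, which may be technical.

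The egg of a fish is enclosed in a coat, the chorion, built from glycoproteins that share a ZP (zona pellucida) domain, through which they polymerise into filaments. ZP3 is a main filament protein of the mouse zona pellucida, and fish carry many copies of ZP3-type and ZP2-type genes. Zebrafish egg coat genes are transcribed in the oocyte, whereas several other fish also make coat proteins in the liver. In mice the oocyte transcription factor Figla is needed for egg coat gene expression.

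Each library held 25176401 to 39189535 counts over 25910 to 27013 genes. The gene foxl2l itself (listed as zgc:194189) had 47231, 40067 and 31437 counts in the foxl2l-/- libraries, against 17736, 22491 and 17630 counts in the foxl2l+/+ libraries. The labels do not say which bases the mutation alters, so this transcript does not check the genotype. Its log2 fold change was 0.64 ± 0.20 (SE; edgeR adjusted p = 0.0263), and the call was lost when foxl2l-/- replicate 1 or 2, or foxl2l+/+ replicate 1 or 2, was left out (adjusted p = 0.0504 to 0.105). The germ cell label was checked with ddx4, an RNA helicase of the germline, chosen after its values were seen, which stood at 1246.8 ± 207.6 TPM in foxl2l-/- libraries against 1320.2 ± 111.5 TPM in foxl2l+/+ libraries (n = 3 each, SD). The log2 fold change of ddx4 was -0.35 ± 0.16 (SE; edgeR adjusted p = 0.127). TPM is the authors' level per gene length, scaled to a fixed total per library. The summed level of 8 germ cell markers ran from 3835.7 to 5744.1 TPM in foxl2l-/- and from 3774.2 to 4422.2 TPM in foxl2l+/+ libraries. Some of the 8 differed far more than ddx4, with ca15b at 12.8% and nanos3 at 239.7% of the foxl2l+/+ mean TPM.

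Every ZP3-type gene was lower in foxl2l-/- germ cells. Of the 10, all passed the test in that direction, all 6 of those matched by name among them, while 15.8% of all 23576 genes tested were called lower and 31.6% were called in either direction. Summed over the 10 genes, the level was 161.9, 152.0 and 174.5 TPM in the foxl2l-/- libraries, against 1096.9, 554.4 and 566.1 TPM in the foxl2l+/+ libraries. The ratio of the foxl2l-/- mean to the foxl2l+/+ mean was 0.220, and the groups did not overlap. Transcripts of the family were thus reduced but present in every foxl2l-/- library, where counts ran from 18 (zp3a.1) to 2722 (zp3d.2). The highest count in a foxl2l+/+ library was 8666 (zp3b). In sorted pools such as these, fewer cells with a transcript and less transcript per cell cannot be told apart.

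The median log2 fold change (foxl2l-/- over foxl2l+/+) of the 10 genes was -3.12, against 0.05 over all genes tested. For 8 of the 10 the fall was at least 4-fold, and 3.78% of all genes tested were both called lower and at least 4-fold lower. Without foxl2l+/+ replicate 1, zp3a.2 fell by less than 4-fold (log2 fold change -1.35). In all 10 genes every foxl2l-/- library lay below every foxl2l+/+ library in CPM (counts over the TMM-scaled library total), an arrangement found in 22.8% of all genes tested. When library totals replaced TMM factors, 2723 genes in all were called lower and 4882 higher, where TMM gave 3733 and 3710, and all 10 ZP3-type genes were still called lower. Several of these genes lie side by side in pairs, and how the authors counted reads with several matches is not given in the sources used here, so the 10 calls need not be independent of one another.

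**Figure D1:**
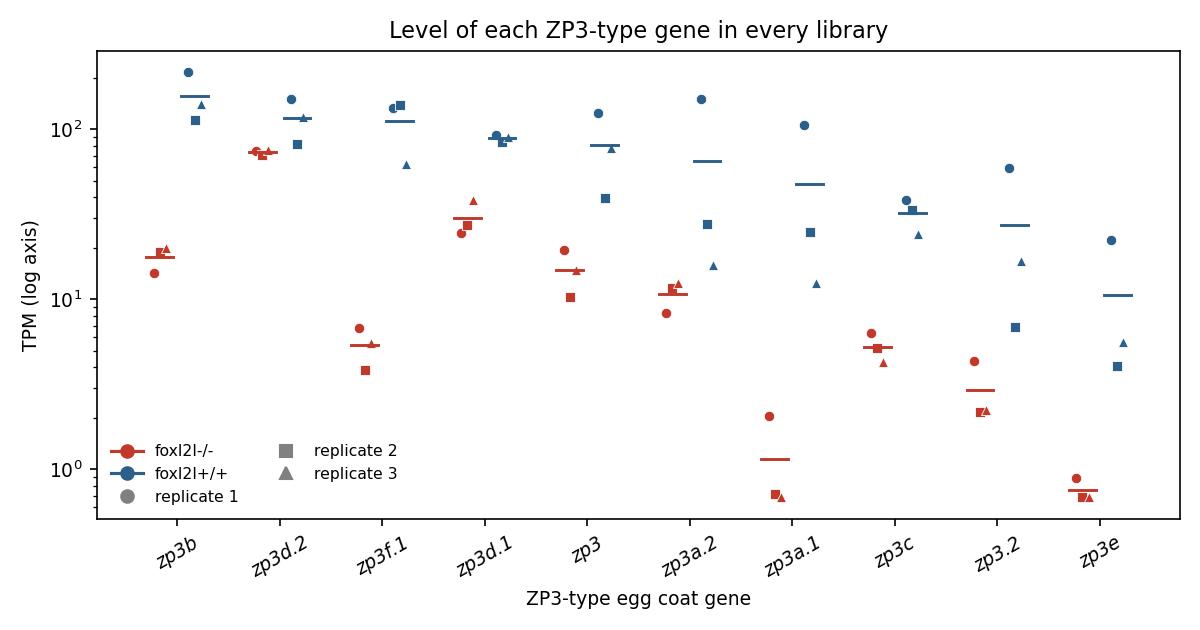
Level of the 10 ZP3-type genes in TPM (log axis), foxl2l-/- libraries in red and foxl2l+/+ libraries in blue, with a horizontal line at the mean of each genotype and a marker shape for each replicate. All red points lie below all blue points for every gene, with the narrowest gap in zp3d.2 (75.3 TPM in the highest foxl2l-/- and 81.7 TPM in the lowest foxl2l+/+ library).

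By mean TPM, zp3b was the most abundant of the family in foxl2l+/+ cells. In foxl2l+/+ replicate 2, however, zp3f.1 was higher, at 138.7 TPM against 113.9 TPM for zp3b. The gene zp3b stands apart from the others on chromosome 2 (GRCz11, 6253246 to 6258796, forward strand, ENSDARG00000039828). Its level was 14.2, 19.0 and 20 TPM in the foxl2l-/- libraries, against 217.4, 113.9 and 141.8 TPM in the foxl2l+/+ libraries. The 3 foxl2l-/- libraries were close together and far below the others, with the lowest foxl2l+/+ library 7.6 times the highest foxl2l-/- library in CPM. On the log2 scale the change was -3.40 ± 0.24 (SE), at an adjusted p of 1.72e-06 (edgeR quasi-likelihood test, Benjamini-Hochberg adjustment across all genes tested). Among the 10 genes this was the smallest adjusted p, and the foxl2l-/- mean was 11.2% of the foxl2l+/+ mean in TPM.

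The gene zp3f.1, elsewhere on chromosome 2 (38282647 to 38284749, reverse strand), showed the widest gap between the genotypes. It had 6.74, 3.83 and 5.51 TPM in the foxl2l-/- libraries, against 132.7, 138.7 and 62.6 TPM in the foxl2l+/+ libraries. The lowest foxl2l+/+ library stood 10 times above the highest foxl2l-/- library in CPM. It fell by 4.63 ± 0.37 on the log2 scale (SE; edgeR adjusted p = 4.58e-06). Its neighbour zp3f.2 (listed as si:ch211-14a17.6), which is not among the 10 genes, lies 664 bases away on the same strand. It had 16.5, 15.6 and 25 TPM in foxl2l-/- libraries, against 149.1, 109.2 and 125.7 TPM in foxl2l+/+ libraries, and fell by 3.01 ± 0.22 (edgeR adjusted p = 2.05e-06). Both genes of this locus were low in every foxl2l-/- library.

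The zp3a pair lies on chromosome 20, zp3a.2 at 33987465 to 33989427 and zp3a.1 at 33991801 to 33993698, both on the forward strand with 2373 bases between them. With all libraries in the edgeR fit, zp3a.1 had the largest fall of the family. It had 65, 22 and 18 counts in the foxl2l-/- libraries, against 3128, 819 and 254 counts in the foxl2l+/+ libraries, or 1.15 ± 0.780 TPM in foxl2l-/- libraries against 47.7 ± 50.6 TPM in foxl2l+/+ libraries (n = 3 each, SD). Its log2 fold change came to -5.55 ± 0.77 (SE; edgeR adjusted p = 0.000246). The SD of the foxl2l+/+ libraries was as large as their mean, with replicate 1 far above the rest.

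Its partner zp3a.2 kept more transcript. Levels were 8.29, 11.7 and 12.4 TPM in the foxl2l-/- libraries, against 151.8, 27.8 and 16.0 TPM in the foxl2l+/+ libraries. The foxl2l+/+ replicate 3 was only slightly above the foxl2l-/- libraries, at 1.60 times the highest of them in CPM. Its log2 fold change came to -2.83 ± 0.63 (SE; edgeR adjusted p = 0.00484). Without foxl2l+/+ replicate 1 it was -1.35, at an edgeR adjusted p of 0.0174 (0.00177 to 0.0447 over all alternatives), and that of zp3a.1 was -4.30. Without foxl2l-/- replicate 1, which held most of the few zp3a.1 counts in that genotype, the value of zp3a.1 was -6.37.

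On chromosome 17 the genes zp3 (2580541 to 2584423) and zp3.2 (2587132 to 2590222) lie on the reverse strand, 2708 bases apart. The level of zp3 was 19.4, 10.3 and 14.8 TPM in the foxl2l-/- libraries, against 125.5, 39.5 and 77.6 TPM in the foxl2l+/+ libraries. It fell by 2.66 ± 0.37 on the log2 scale (SE; edgeR adjusted p = 0.000270). The foxl2l-/- mean was 18.3% of the foxl2l+/+ mean, and the groups did not overlap. The level of zp3.2 was 4.32, 2.18 and 2.23 TPM in the foxl2l-/- libraries, against 59.0, 6.84 and 16.8 TPM in the foxl2l+/+ libraries. It fell by 3.43 ± 0.64 (adjusted p = 0.00180, edgeR), or by 2.26 without foxl2l+/+ replicate 1 (adjusted p = 0.00849).

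Both genes of this locus sit entirely within the annotated span of another gene, zgc:173556 (2569521 to 2596125), on the same strand. That gene had 479, 342 and 353 counts in the foxl2l-/- libraries, against 5560, 1981 and 1775 counts in the foxl2l+/+ libraries, and fell by 3.31 ± 0.36 on the log2 scale (SE; adjusted p = 4.38e-05, edgeR). Reads of the 3 genes may have been shared or discarded in counting, so their separate values are uncertain. The deposited table lists zp3 and zp3.2 as zp3.2_1 and zp3.2_2, and the identifiers match these 2 rows to their symbols.

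The zp3d pair on chromosome 16 was the least changed. The gene zp3d.2 (42048362 to 42056137, reverse strand) had 75, 71.1 and 75.3 TPM in the foxl2l-/- libraries, against 151.5, 81.7 and 118.4 TPM in the foxl2l+/+ libraries. The groups came close, with foxl2l+/+ replicate 2 at 1.27 times the highest foxl2l-/- library in CPM. Its log2 fold change was -0.91 ± 0.21 (SE; edgeR adjusted p = 0.00621). With limma-trend on log2(TPM + 0.1) the call was lost, at -0.62 and an adjusted p of 0.0505 (0.000766 to 0.0505 over all alternatives).

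Its neighbour zp3d.1 (42057918 to 42066617, reverse strand, 1780 bases away) varied least among foxl2l+/+ libraries. It had 24.7, 27.3 and 38.6 TPM in the foxl2l-/- libraries, against 92.5, 83.7 and 90.7 TPM in the foxl2l+/+ libraries. It fell by 1.83 ± 0.19 on the log2 scale (SE; edgeR adjusted p = 3.00e-05). An unnamed gene on the opposite strand overlaps zp3d.1 by 36 bases and had 0 counts in every library.

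The remaining 2 genes stand alone and fell by different amounts. The gene zp3c (chromosome 1, 49514224 to 49521411, reverse strand) had 6.36, 5.15 and 4.30 TPM in the foxl2l-/- libraries, against 38.4, 33.4 and 24.2 TPM in the foxl2l+/+ libraries. It fell by 2.84 ± 0.31 on the log2 scale (SE; edgeR adjusted p = 4.38e-05). All 3 foxl2l-/- libraries lay below all foxl2l+/+ libraries. The gene zp3e (chromosome 3, 31875772 to 31879201, reverse strand) had the lowest mean TPM of the family in both genotypes. In CPM, zp3a.1 was lower in foxl2l-/- libraries, at a mean of 0.869 against 1.18 for zp3e. The level of zp3e was 0.895, 0.690 and 0.683 TPM in the foxl2l-/- libraries, against 22.4, 4.04 and 5.58 TPM in the foxl2l+/+ libraries. It fell by 4.02 ± 0.59 (adjusted p = 0.000359, edgeR), or by 2.94 without foxl2l+/+ replicate 1 (adjusted p = 0.00106).

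**Figure D2:**
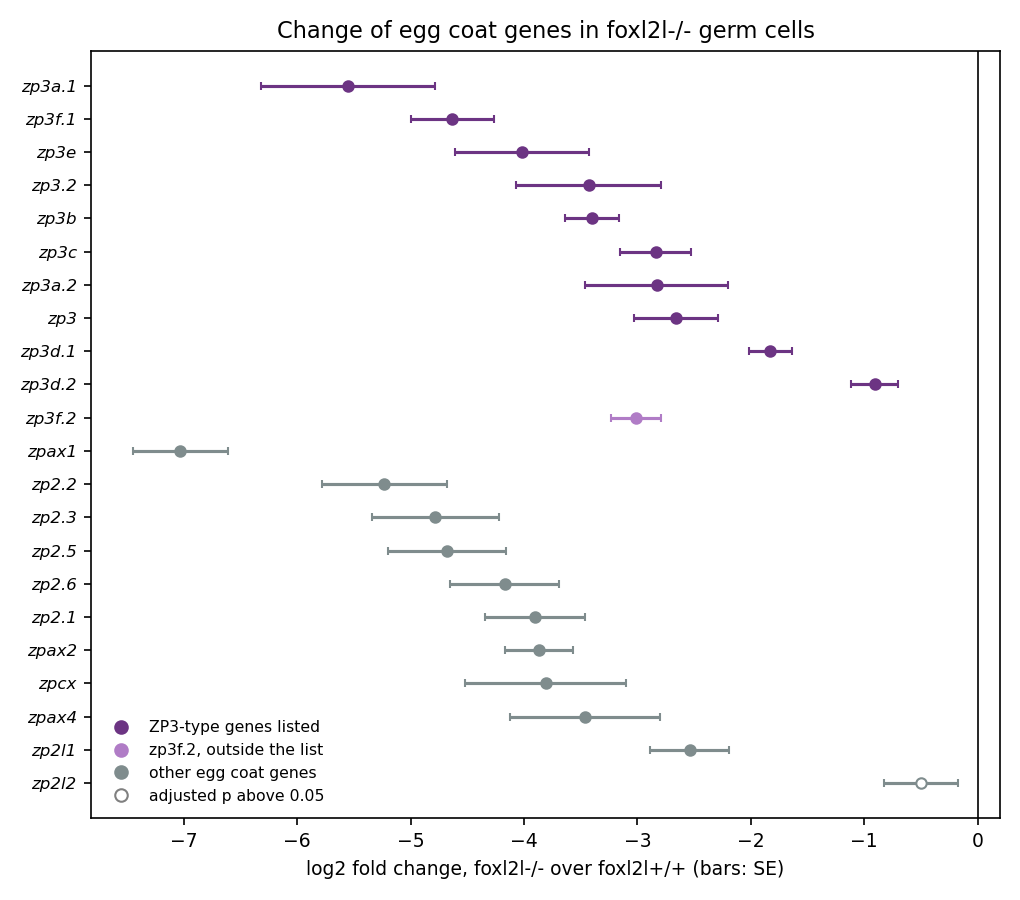
Log2 fold change of foxl2l-/- over foxl2l+/+ (points, with SE as bars) for the 10 ZP3-type genes, for zp3f.2 and for 11 other egg coat genes; open points did not pass the test. All ZP3-type genes lie left of 0, between -5.55 (zp3a.1) and -0.91 (zp3d.2), and zp2l2 is the only open point.

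The make-up of ZP3-type transcripts differed between the genotypes. The zp3d pair made up 61.6%, 64.8% and 65.3% of the summed TPM of the 10 genes in the foxl2l-/- libraries, against 22.2%, 29.8% and 36.9% in the foxl2l+/+ libraries. Most of this was zp3d.2, at 45.4 ± 1.96% in foxl2l-/- libraries against 16.5 ± 3.86% in foxl2l+/+ libraries (n = 3 each, SD). The share of zp3b was 10.9 ± 1.89% in foxl2l-/- and 21.8 ± 2.83% in foxl2l+/+ libraries. That of zp3f.1 was 3.28 ± 0.828% in foxl2l-/- and 16.1 ± 7.77% in foxl2l+/+ libraries. The shares of zp3d.2, zp3b, zp3f.1, zp3a.1 and zp3e did not overlap between the genotypes, whereas those of zp3, zp3a.2, zp3.2, zp3c and zp3d.1 did. Without the zp3d pair, the other 8 genes summed to 62.3, 53.6 and 60.5 TPM in the foxl2l-/- libraries, against 852.9, 389.0 and 357.0 TPM in the foxl2l+/+ libraries. The shares within a library are parts of the same sum, so they depend on each other. They are given as a description, and the differences between members were not tested.

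**Figure D3:**
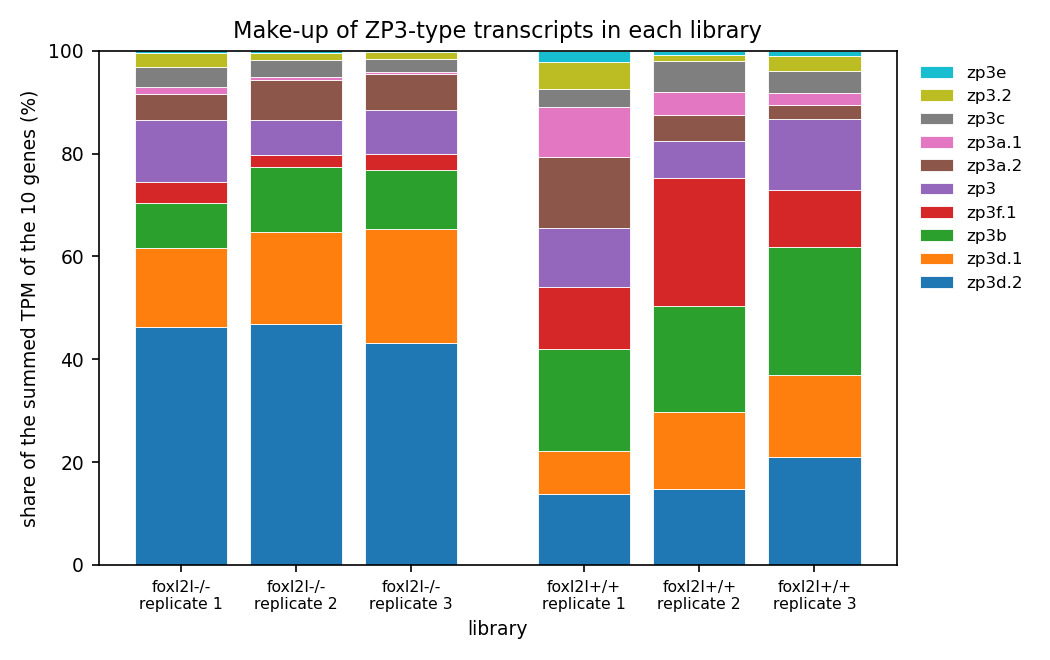
Share of each gene in the summed TPM of the 10 ZP3-type genes (percent, stacked bars), 1 bar per library with the foxl2l-/- libraries on the left. The lowest 2 segments, zp3d.2 and zp3d.1, together reach 61.6% to 65.3% in foxl2l-/- and 22.2% to 36.9% in foxl2l+/+ libraries.

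The order of levels per length also differed. In foxl2l-/- libraries the order by mean TPM was zp3d.2, zp3d.1, zp3b, zp3, zp3a.2, zp3f.1, zp3c, zp3.2, zp3a.1 and zp3e, with 73.8 ± 2.33 TPM at the top and 0.756 ± 0.121 TPM at the bottom (SD, n = 3). Of the 9 pairs of neighbours in that order, 4 did not overlap in their libraries: zp3d.2 and zp3d.1, zp3d.1 and zp3b, zp3a.2 and zp3f.1, and zp3.2 and zp3a.1. In foxl2l+/+ libraries the order was zp3b, zp3d.2, zp3f.1, zp3d.1, zp3, zp3a.2, zp3a.1, zp3c, zp3.2 and zp3e, with 157.7 ± 53.6 TPM for zp3b and 10.7 ± 10.2 TPM for zp3e. There the ranges of all 9 pairs of neighbours overlapped, given the spread of the libraries. Within every foxl2l+/+ library, however, zp3b exceeded zp3d.2, zp3a.2 exceeded zp3a.1 and zp3.2 exceeded zp3e. The other pairs changed order between libraries.

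Much of that spread came from foxl2l+/+ replicate 1. It held the highest CPM of the 3 foxl2l+/+ libraries for 9 of the 10 genes, the exception being zp3f.1, and for all 11 other egg coat genes. For zp3d.1 that lead was slight, at 130.9 CPM against 130.3 and 130.6 CPM in replicates 2 and 3. How often replicate 1 was highest over all genes was not counted. The highest foxl2l+/+ library was 9.32 times the lowest for zp3a.2, 8.30 times for zp3a.1, 7.85 times for zp3.2 and 5.04 times for zp3e. For zp3b it was 1.74 times and for zp3c 1.56 times, while zp3d.1 stood at 130.6 ± 0.28 CPM (SD, n = 3). Over the 10434 tested genes that averaged 10 CPM or more in foxl2l+/+ libraries, the median of that ratio was 1.34, and 6 of the 10 genes exceeded its 90th percentile of 1.88. The same library was also high for the haemoglobin gene hbaa1, whose counts ran from 57 to 115 in foxl2l-/- libraries and were 1790, 155 and 65 in foxl2l+/+ replicates 1, 2 and 3. Other blood markers did not all follow hbaa1. In the same 3 libraries slc4a1a was at 19.7, 19.5 and 32.8 CPM, highest in replicate 3. The marker alas2 was highest in replicate 1 but differed little, at 25.7, 17.5 and 21.2 CPM. The part of blood transcripts in the egg coat values was not tested. Without foxl2l+/+ replicate 1 all 10 genes were still called lower, with a median log2 fold change of -2.50.

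**Figure D4:**
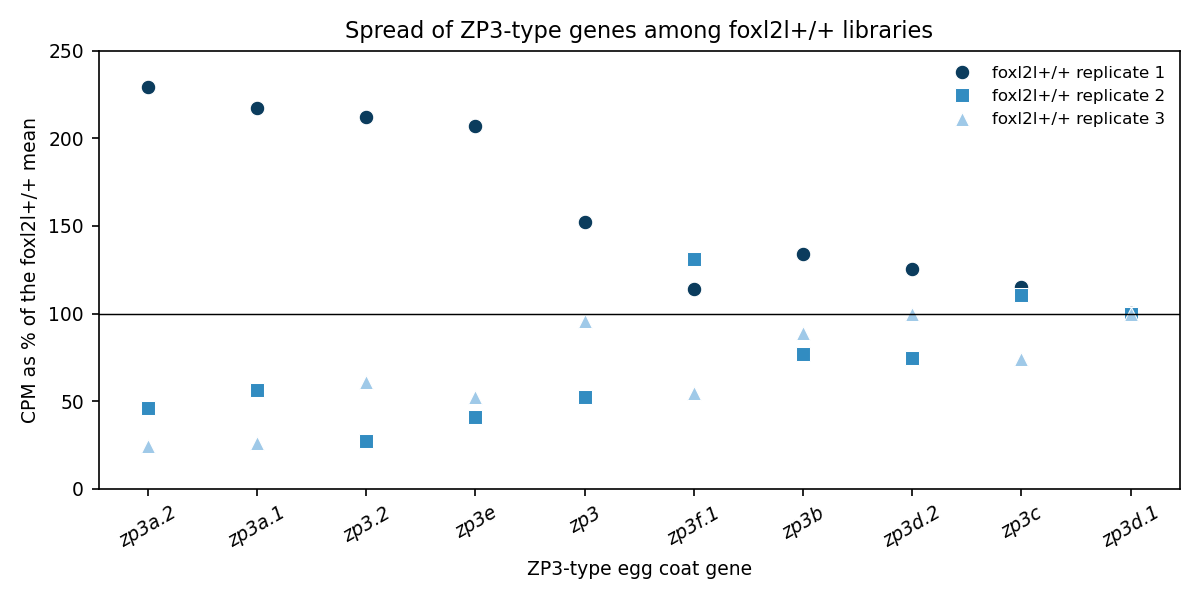
CPM of each ZP3-type gene in the 3 foxl2l+/+ libraries, as a percentage of the mean of those libraries (horizontal line at the mean), with genes in order of their spread. Replicate 1 lies far above the others for zp3a.2, zp3a.1, zp3.2 and zp3e, whereas the 3 libraries coincide for zp3d.1.

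Apart from zp3f.2, which is itself an egg coat gene and fell, 13 other genes are the nearest annotated neighbours of the 10 by position, leaving out those that overlap them. Of the 12 with enough counts to test, 3 fell, 2 rose and 7 did not pass, where 15.8% of all genes tested were called lower and 31.6% in either direction. Their median log2 fold change was 0.15. Beside zp3b lies gng5, a G protein subunit gene, at 0.12 ± 0.17 (SE; adjusted p = 0.626, edgeR). Beside zp3e lie ddx42, an RNA helicase gene only 240 bases away, at -0.14 ± 0.22 (adjusted p = 0.675), and limd2 at 0.82 ± 0.61 (adjusted p = 0.339). Both neighbours of zp3e thus missed the threshold while zp3e fell by 4.02. The gene 1721 bases from zp3a.2, si:dkey-51e6.1, was likewise not called, at 0.36 ± 0.27 (adjusted p = 0.333).

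Among these 12, the genes that fell were rnf212b, si:dkey-97o5.1 and dyrk1b. Rnf212b, whose mouse counterpart acts in meiotic crossover formation, lies 567 bases from zp3f.1. It had 47.6, 55.5 and 54.2 TPM in the foxl2l-/- libraries, against 179.3, 174.7 and 194.8 TPM in the foxl2l+/+ libraries, and fell by 2.06 ± 0.18 (SE of the log2 change). The gene si:dkey-97o5.1, 881 bases from zp3a.1, fell by 0.77 ± 0.21, and dyrk1b, a kinase gene 5078 bases from zp3d.1, fell by 1.11 ± 0.34. Those that rose were si:dkey-248g15.3 near zp3 (3.66 ± 0.67) and si:ch211-281g13.5 near zp3c (1.72 ± 0.39). Their adjusted p-values in edgeR's test ran from 1.02e-05 for rnf212b to 0.0251 for dyrk1b.

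**Figure D5:**
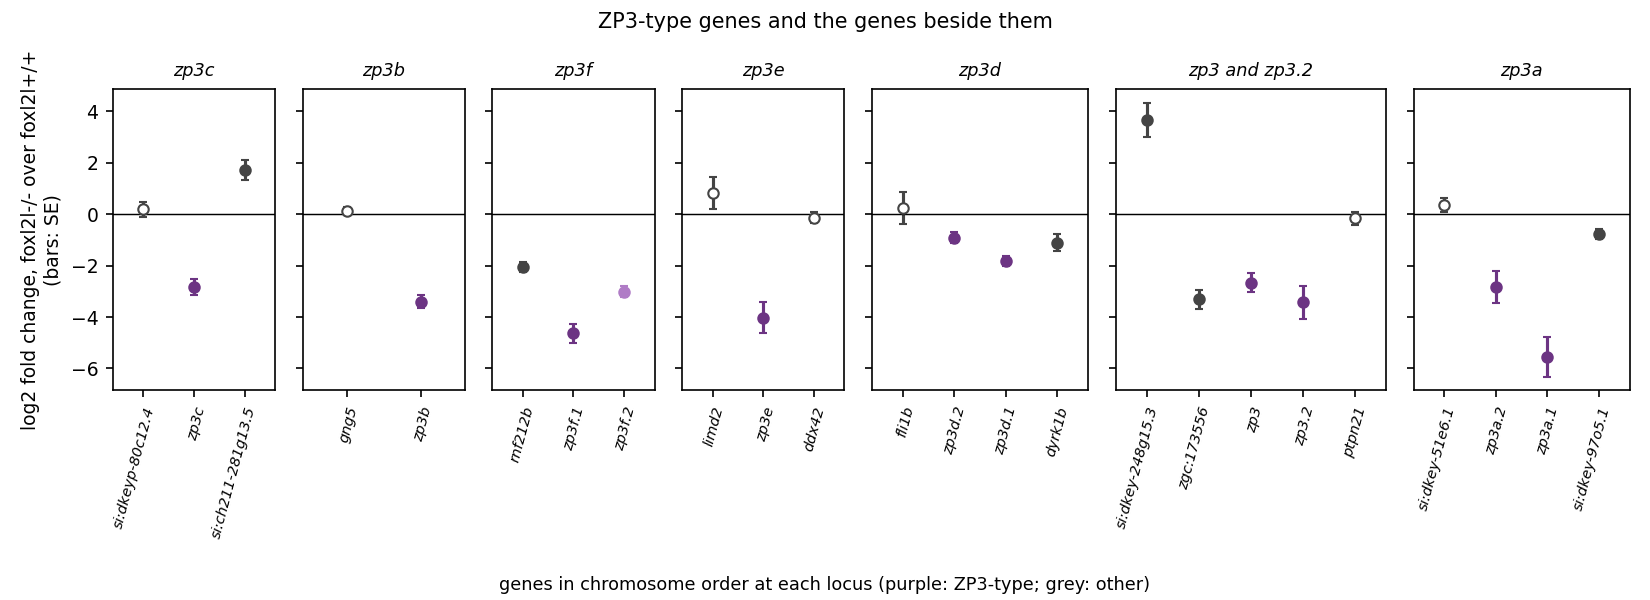
Log2 fold change of foxl2l-/- over foxl2l+/+ (points, with SE as bars) for the ZP3-type genes (purple), the genes beside them and zgc:173556 (grey), in chromosome order at each of the 7 loci; open points did not pass the test. Apart from zp3f.2 (light purple, -3.01), the flanking genes lie between -2.06 and 3.66, with 7 of the 12 open.

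Other egg coat genes fell with the ZP3-type genes. Of 11 genes of the ZP2, zpax and zpcx types, 10 fell and 1 did not pass, where 15.8% of all genes tested were called lower. Their median log2 fold change was -3.90, against 0.05 over all genes tested. The genes zp2.1, zp2.2, zp2.3, zp2.5 and zp2.6 lie close together on chromosome 20 (54290356 to 54316972). Reads may match several of them, so their calls need not be independent of one another. The gene zpax1 (listed as si:dkeyp-50f7.2) had 2.36, 1.19 and 2.85 TPM in the foxl2l-/- libraries, against 351.6, 211.9 and 139.0 TPM in the foxl2l+/+ libraries, and fell by 7.03 ± 0.42 (SE of the log2 change). Also lower were zpax2 (-3.87 ± 0.30), zp2.2 (-5.23 ± 0.55) and zp2.5 (-4.68 ± 0.52). Without foxl2l+/+ replicate 1, zp2.2 was at -4.30 and zp2.5 at -3.91, and both were still called. The exception, named after its values were seen, was zp2l2, at 12.2 ± 2.84 TPM in foxl2l-/- libraries against 14.5 ± 5.33 TPM in foxl2l+/+ libraries (n = 3 each, SD), with a log2 fold change of -0.50 ± 0.33 (adjusted p = 0.287, edgeR). Summed, the 11 genes ran from 35.5 to 47.1 TPM in foxl2l-/- and from 389.4 to 1075.2 TPM in foxl2l+/+ libraries.

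Genes for ZP-domain proteins of other tissues were counted beside the egg coat genes. By edgeR, 0 of 9 fell, where 15.8% of all genes tested did, 1 rose and 8 did not pass, and 0 were lower at an unadjusted p under 0.05 or by DESeq2 or limma-trend, with a median log2 fold change of 0.14. None of the 9 had foxl2l-/- libraries all below the foxl2l+/+ libraries in CPM, an arrangement found in 22.8% of all genes tested. With only 9 genes, these counts of 0 were not tested against the shares of all genes. The gene that rose was cuzd1.1, named for its CUB and zona pellucida-like domains. It had 30.2, 28.0 and 26.4 TPM in the foxl2l-/- libraries, against 8.23, 5.53 and 18.6 TPM in the foxl2l+/+ libraries, with a log2 fold change of 1.16 ± 0.37 (adjusted p = 0.0304, edgeR). Its call ended when foxl2l-/- replicate 1 or 2 was left out (edgeR adjusted p = 0.0816 and 0.0627) and when foxl2l+/+ replicate 1 or 2 was (0.113 and 0.112), and its value was 1.80 without foxl2l+/+ replicate 3. The tectorin gene tecta, a component of the inner ear's tectorial membrane, was at -0.46 ± 0.39 (adjusted p = 0.405), umodl1 at 0.73 ± 0.66 (adjusted p = 0.440) and zpld1a at -0.93 ± 1.20 (adjusted p = 0.598). Several of the 9 were near the floor in foxl2l+/+ libraries, with means of 0.560 CPM for umodl1, 0.543 for zpld1a and 0.366 for oit3. A fall of such genes could hardly be called.

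Of 7 oocyte transcriptional regulators, 4 fell, 1 rose and 2 did not pass, where 15.8% of all genes tested were called lower and 15.7% higher. Figla had 48, 46 and 105 counts in the foxl2l-/- libraries, against 12102, 9578 and 6523 counts in the foxl2l+/+ libraries, and fell by 7.48 ± 0.36 on the log2 scale (SE). Unlike zp3a.1 or zp3.2, it was even among foxl2l+/+ libraries, at 418.3 ± 74.8 TPM (SD, n = 3), and it averaged 2.86 ± 1.76 TPM in foxl2l-/- libraries. The homeobox gene lhx8a (-3.53 ± 0.22), the GATA-type gene zglp1 (-6.45 ± 0.28) and taf4b, a TFIID subunit gene (-2.55 ± 0.24), also fell. The gene that rose, lhx8b (1.1 ± 0.39; edgeR adjusted p = 0.0484), lies outside the rule for named genes and was named after its values were seen. Under RLE factors, the replicate block or 5 of the 6 fits without 1 library, 0 of these regulators were called higher.

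Genes of the egg surface and of precursor processing are set beside the 15.8% of all genes tested that were called lower and the 31.6% called in either direction. Among 7 egg surface and fertilization genes, 2 fell and 5 did not pass, with a median log2 fold change of -0.27. The ovochymase gene ovch1 fell by 3.52 ± 0.19 and the tetraspanin gene cd9a by 1.14 ± 0.25 (SE), while ovch2 (1.08 ± 0.83) and cd9b (-0.36 ± 0.31) did not pass. ZP proteins are made as precursors that a furin-type convertase cleaves. Among 5 convertase genes tested, furina fell by 1.15 ± 0.23, at 9.51 ± 3.38 TPM in foxl2l-/- libraries against 17.5 ± 3.93 TPM in foxl2l+/+ libraries (n = 3 each, SD), and 4 did not pass, among them pcsk7 (-0.55 ± 0.31), pcsk5b (0.71 ± 0.44) and pcsk5a (1.17 ± 1.0).

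By pattern over the 6 libraries, the genes most like zp3b were stard14, gdf9, sult1st7, tuba4l and polb, with Pearson's r of log2(CPM + 2) from 0.9979 to 0.9990. Of 9864 candidate genes 748 had an r over 0.95, and any gene that separates the genotypes shares most of this pattern. The measure ignores the size of a change: gdf9, an oocyte growth factor gene, fell by 3.42 ± 0.25 on the log2 scale (SE), whereas polb, a DNA repair polymerase gene, was at -0.38 ± 0.18 and did not pass. For zp3a.2, which varied most among foxl2l+/+ libraries, the nearest were ndufs8a, med22, cast, capn9 and actb1, with r from 0.9790 to 0.9924 and 34 genes over 0.95. Only actb1 of these was called, at -0.60 ± 0.19 (adjusted p = 0.0290, edgeR), and that call ended under library totals (-0.40), under limma-trend with either pseudocount (-0.32) and when any of 4 libraries was left out. These correlations share the libraries and their depth and are given as a description.

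Markers of other cell types were low beside the germ cell markers, and some were called. The counts below stand beside 15.8% of all genes tested called lower and 15.7% called higher. Somatic gonad markers (19 genes) summed to 57.0 to 70.2 TPM in foxl2l-/- and 29.5 to 33.0 TPM in foxl2l+/+ libraries, and of 16 tested 1 rose, the steroidogenic gene cyp17a1. Liver markers (13 genes) summed to 36.9 to 52.6 TPM in foxl2l-/- and 26.0 to 45.3 TPM in foxl2l+/+ libraries, with 3 higher, 2 lower and 8 not passing. Without foxl2l-/- replicate 2, 0 liver markers were called lower, and without foxl2l+/+ replicate 1, 0 were called higher. The vitellogenin genes vtg1 and vtg2, named after their values were seen, were among those not passing. Blood markers (7 genes) summed to 29.4 to 78.6 TPM in foxl2l-/- and 60.8 to 178.2 TPM in foxl2l+/+ libraries, with 3 of 6 lower (2 to 4 over the alternatives) and 1 higher, and muscle markers (5 genes) to 90.2 to 106.5 TPM in foxl2l-/- and 75.1 to 78.3 TPM in foxl2l+/+ libraries, with 1 of 5 higher. None of these markers was at 0 in all libraries. Of the 8 germ cell markers 2 fell (ca15b and dnd1), 1 rose (nanos3) and 5 did not pass, with dnd1 losing its call under 8 alternatives and nanos3 under 2. The part of these markers in the egg coat values was not tested.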

How the data were processed

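Per the file headers, the deposited table gives a raw count ("Total counts") for each gene and library. Its TPM columns are the authors' own normalization for length and depth, per the file headers, and further deposited columns hold their log2 fold changes. The submitters' processing notes name the build GRCz11 and the tool bcl2fastq. Which aligner, counter and annotation release were used, and how multi-mapping reads were treated, is not given in the sources used here. SMART-Seq HT chemistry does not mark the strand. Another 12 columns of RPKM and CPM values were not used.

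Counts were tested with edgeR 4.0.16 in R 4.3.3 (filterByExpr, TMM, glmQLFit, glmQLFTest), with Benjamini-Hochberg adjustment over the 23576 genes tested and a threshold of 0.05, after the steps had been tested on simulated data. Standard errors were derived from the same fit, as the absolute log2 fold change over the square root of the quasi-likelihood F statistic. All 10 ZP3-type genes passed the filter on low counts. Counts are reads without molecular identifiers from few cells, so they overstate the molecules sampled. Pairs of libraries of a genotype differed beyond sampling noise (a chi-square of 33.45 to 120.7 per degree of freedom). Alternatives were DESeq2 1.42.0, limma 3.58.1 on log2(TPM + 1) or log2(TPM + 0.1), RLE factors, library totals, no low-count filter, at least 10 counts in 3 libraries, a replicate block, and leaving out each library.

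The genes and lists were chosen with earlier results of these data known. Named genes are the 10 ZP3-type genes, figla, foxl2l, up to 4 genes with the smallest p from each list, and the 5 genes most like each of 2 members. Neighbouring genes were taken by position, a choice made after the data were seen. The reference name table gave a symbol to 28988 identifiers (91.3%). In the lists, 8 symbols or names matched no row and were not analysed here.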

Additional observations from a re-analysis of the deposited data

How the results depend on the processing

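The call of lower expression held for all 10 ZP3-type genes under 13 of 14 alternatives. The exception was limma-trend on log2(TPM + 0.1), with 9 of 10, where zp3d.2 was at -0.62. Of 140 values of single members under the alternatives, 139 kept their direction and their side of the threshold. Over all genes, leaving out 1 library gave 2600 to 3753 genes lower and 2708 to 3302 higher. The median of all genes (log2 fold change) differed between settings. It was 0.05 with TMM, 0.25 with library totals, 0.19 with limma-trend on log2(TPM + 1) and 0.28 with log2(TPM + 0.1). The median of the 10 genes was -3.12, -2.92, -2.39 and -2.65 under the same settings. With limma-trend the unit, the method and the pseudocount change along with the scaling, and their separate parts were not tested. Leaving out foxl2l+/+ replicate 1 moved zp3a.1, zp3a.2, zp3.2 and zp3e by over 1.5 times, to -4.30, -1.35, -2.26 and -2.94, and leaving out foxl2l-/- replicate 1 moved zp3a.1 to -6.37. Among other genes, zpld1a turned to 1.24 without foxl2l+/+ replicate 1 (-1.43 to 1.24 over the libraries left out), and ndufs8a turned to 0.02 with limma-trend under either pseudocount, neither of them called in any of these fits; the cause was not tested. With the replicate number as a block, 10 of 10 members, 3670 genes lower and 3529 higher were called. Deviations of same-numbered libraries correlated at -0.038, 0.050 and 0.037, so the numbers were not taken to pair the libraries. The 3 libraries per genotype limit the precision, most of all for zp3a.1, zp3a.2, zp3.2 and zp3e.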

Other observations

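The authors' deposited table gives log2 fold changes (foxl2l-/- over foxl2l+/+) for the ZP3-type genes from -5.53 for zp3a.1 to -0.87 for zp3d.2, all of them negative. For zp3b that table gives -3.37, for zp3f.1 -4.60, for zp3d.1 -1.79 and for zp3f.2 -2.97.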
